A study of Mus musculus with 2 samples.

Results

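The genes of the extracellular matrix were followed in RNA of CD31+ KITint cells from the mouse aorta at embryonic day 11. The set held the collagen chains, the laminin chains, the fibrillins, fibulins, emilins and microfibril-associated proteins, fibronectin and elastin, the thrombospondins, tenascin C, the nidogens and perlecan, Sparc and Sparcl1, periostin, versican, lumican, decorin and biglycan, and the latent TGF-beta binding proteins. Its members were chosen by gene symbol alone, and 91 of the 24062 genes in the count tables matched. At least 1 count in a library was found for 77 of them, and 14 had 0 counts in both. A total of 70 had at least 20 counts over both libraries and are called measured, and 58 of these reached a level of 10 CPM, which is a library's count scaled to a common total, and 50 counts in a library.

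Embryos were of strain C57BL6 and carried the Gata2Venus transgene, which reports expression of the blood transcription factor Gata2 by fluorescence and on which cells were sorted. The labels call both groups haematopoietic progenitor cells. Cells without the reporter signal (Gata2Venus-negative) gave 1 library of 10135400 gene counts, and cells with it (Gata2Venus-positive) gave 1 of 9715131. How many embryos gave each library is not given in the sources used here. The study's title names Gata2-independent progenitors, and its comparison sets reporter-negative against reporter-positive cells.

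Because each group is 1 library, differences have no replicate check, p-values are not printed, and what is compared is this pair of libraries rather than the conditions. All 95% intervals are exact and cover counting error alone, and may be too narrow because PCR copies of a molecule, with no identifiers named, are counted separately. The rule of size used here asked for 10 CPM and 50 counts in the higher library and for a ratio whose whole interval exceeded 2-fold. Where 0 counts were found, up to 3 remain possible, which is 0.288 CPM in the Venus-negative and 0.317 CPM in the Venus-positive library. Ratios written as "at least" put 3 counts in place of the 0. They leave out the counting error of the other library, so they are not interval bounds. For Thbs2 such a log2 ratio was 8.11, and the lower end of its 95% interval was 7.81.

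Extracellular matrix has 2 main forms. Interstitial matrix is built from fibrillar collagens, fibronectin, proteoglycans and elastic fibres and is made largely by mesenchymal cells such as fibroblasts and smooth muscle. The basement membrane is a thin sheet of laminin and type IV collagen networks, joined by nidogens and perlecan, on which endothelium rests and to which endothelial and mural cells both contribute. Collagen chains assemble in threes, and laminins combine an alpha, a beta and a gamma chain.

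Matrix transcripts were present in both libraries, and 8 of the 12 highest matrix genes per length were shared. The 91 genes together took 1.67% of gene counts in the Venus-negative library (169548 counts, interval 1.66 to 1.68%) and 1.34% in the Venus-positive library (130512 counts, interval 1.34 to 1.35%). Their summed level was 16285 CPM in the Venus-negative and 13800 CPM in the Venus-positive library, a log2 ratio of negative over positive of 0.24 (interval 0.23 to 0.25). Without the type III collagen gene Col3a1 that log2 ratio was 0.06 (interval 0.05 to 0.07), so Col3a1 made up most of the difference in the sum.

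Of the 70 measured members, 16 were higher and 7 lower in the Venus-negative library by the rule of size, and 47 were not past it. Over all 12544 genes with at least 20 counts, 12.6% were higher and 12.3% lower, 24.9% in all. Among genes reaching 10 CPM and 50 counts in a library, 16 of 58 members (27.6%) were higher and 7 of 58 (12.1%) lower, against 15.2% and 14.9% of all 10381 such genes, 30.1% in all. The share of members lower in the Venus-negative library was thus near the background. Among genes with a mean of at least 50 CPM, 6 of 34 members (17.6%) were higher and 2 (5.88%) lower, against 7.89% and 6.41% of 4730 genes, and 23 of the 34 members had a ratio within 2-fold. The median log2 ratio was 0.28 over the 70 measured members, 0.29 over the 59 above 3 counts in both libraries and −0.012 over all 12544 genes. These counts and medians describe the libraries and were not tested.

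**Figure D1:**
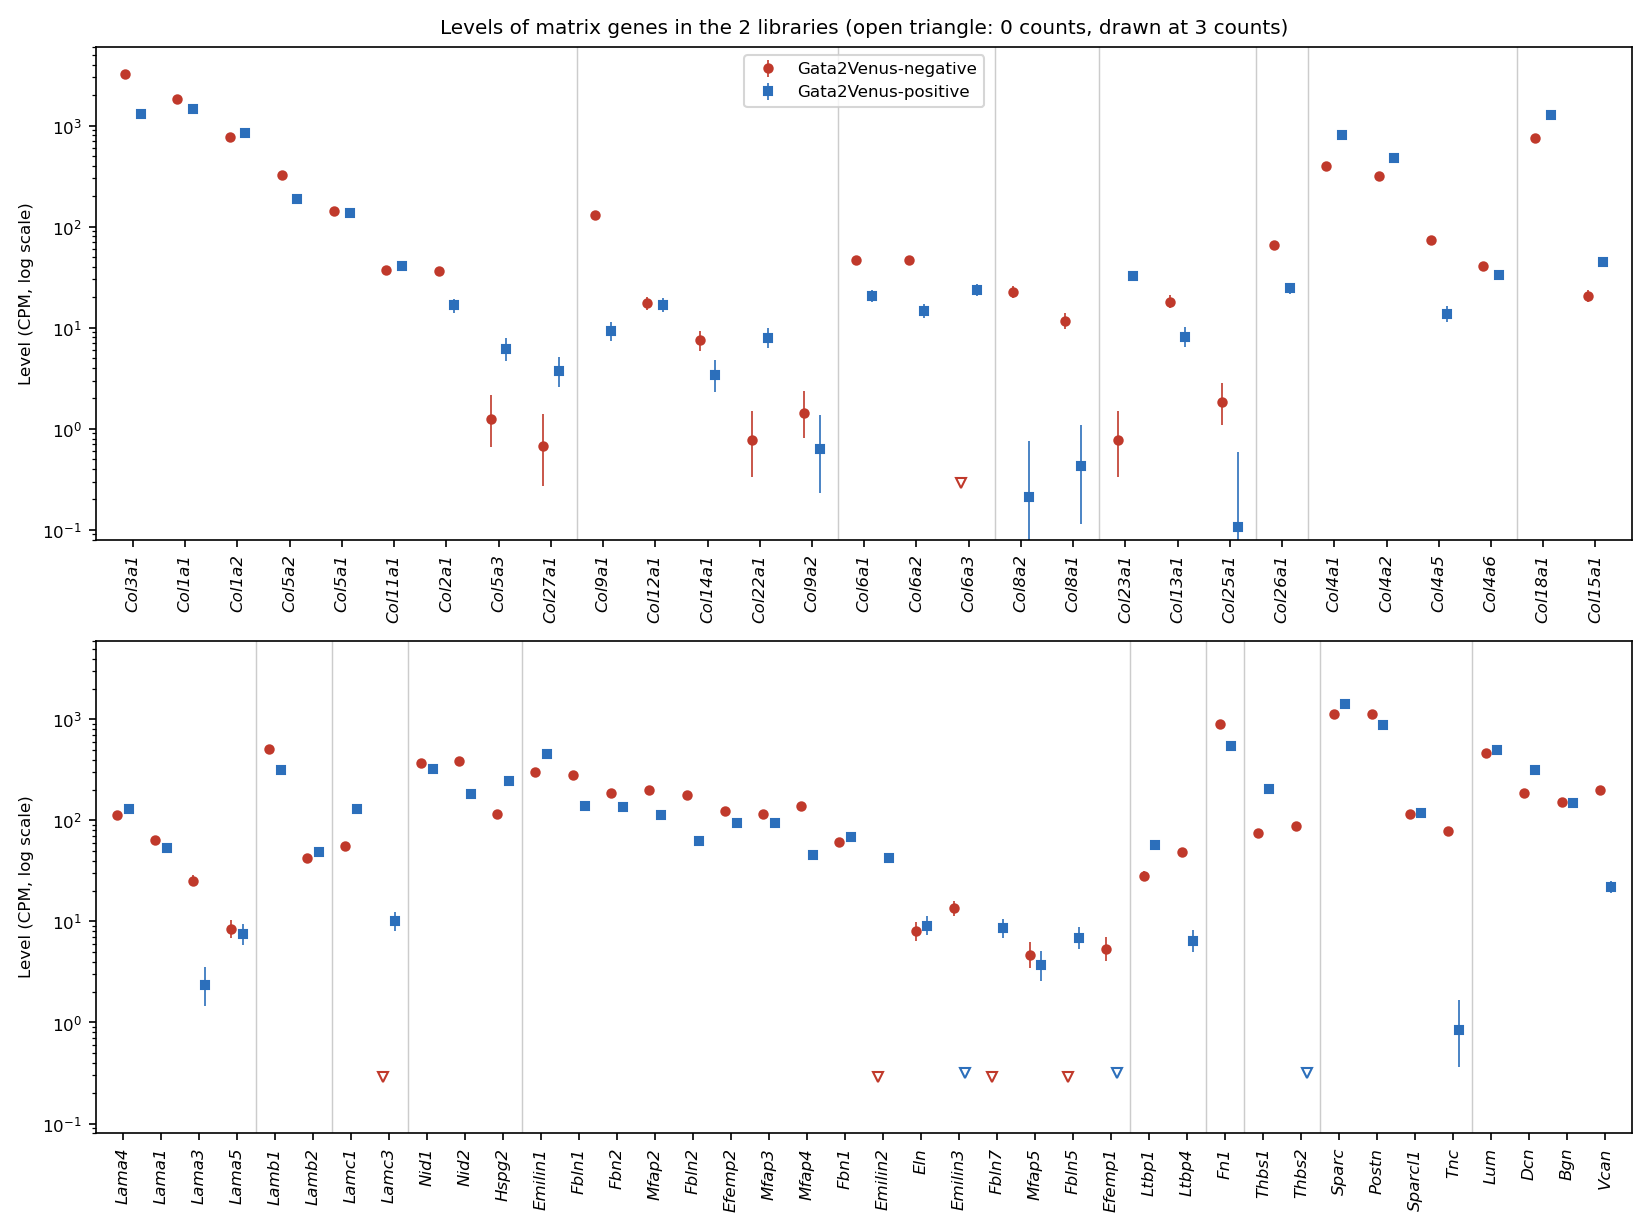
Levels in CPM (log scale) of 69 of the 70 measured matrix genes, grouped by class, in the Gata2Venus-negative library (circles) and the Gata2Venus-positive library (squares). Bars are exact 95% counting intervals, and open triangles mark 0 counts. Col3a1 is the highest circle at 3249 CPM and Col1a1 the highest square at 1453 CPM, and no gene with 0 counts in a library exceeds the 87.9 CPM of Thbs2 in the other.

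Levels of different genes were set side by side per length, as TPM, a share of transcripts corrected for length, over the union of each gene's exons. By this measure 8 genes were among the 12 highest members in both libraries: Sparc, Col1a1, Col3a1, Lum, Mfap2, Postn, Col18a1 and Col1a2. Col3a1 ranked 1 of the members in the Venus-negative library at 1404 TPM and 5 in the Venus-positive library at 541 TPM. Sparc, a collagen-binding glycoprotein, ranked 2 at 1269 TPM in the Venus-negative and 1 at 1531 TPM in the Venus-positive library. With the length of the longest coding transcript in place of the exon union, an alternative added after seeing the data, Sparc stood above Col3a1 in both libraries (2283 and 1608 TPM in the Venus-negative, 2753 and 619 TPM in the Venus-positive library). The order of genes within a library therefore depends on the length used, and ratios of a gene between libraries do not.

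The fibrillar collagens, which form the banded fibres of connective tissue, differed from each other. Of 11 chains 9 were measured, of which Col3a1 was higher in the Venus-negative library and 8 did not pass the rule. Col3a1 (chromosome 1, 45311538 to 45349706, mm10) encodes the type III chain of distensible tissues such as the vessel wall. It had 33824 counts in the Venus-negative and 12387 in the Venus-positive library, or 3249 CPM and 1310 CPM, 2.48-fold higher in the Venus-negative library (log2 ratio 1.31, interval 1.28 to 1.34). When a spread between libraries of 0.4 (coefficient of variation) was assumed, it did not pass the rule. The type I chains, the bulk of most connective tissue, were close to equal. Col1a1 (chromosome 11, 94936224 to 94953042) was at 1837 and 1453 CPM (log2 ratio 0.34, interval 0.31 to 0.37), and Col1a2 (chromosome 6, 4504814 to 4541544) at 768 and 840 CPM (log2 ratio −0.13, interval −0.18 to −0.09). As a level per length, Col3a1 over Col1a1 was 1.18 in the Venus-negative and 0.603 in the Venus-positive library, or 1.89 and 0.961 with the longest coding transcript.

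Type V collagen, which sets the width of type I fibres, held both kinds of value. Col5a2 was at 321 CPM in the Venus-negative and 190 CPM in the Venus-positive library (log2 ratio 0.76), Col5a1 at 144 and 137 CPM (log2 ratio 0.08), and Col5a3, a minor chain, had 13 and 58 counts (log2 ratio −2.30). Of the cartilage fibre chains, Col2a1 had 378 and 157 counts (log2 ratio 1.13, interval 0.86 to 1.41) and Col11a1 385 and 382 (log2 ratio −0.13). Col27a1 had 7 and 35 counts, Col24a1 2 and 0, and Col11a2 0 in both.

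Collagens that decorate fibres or form other networks gave some of the widest differences. Col9a1 (chromosome 1, 24177610 to 24252684), a chain of the cartilage collagen type IX that sits on fibre surfaces, had 1365 counts in the Venus-negative and 88 in the Venus-positive library, 131 and 9.30 CPM. It was 14.1-fold higher in the Venus-negative library (log2 ratio 3.82, interval 3.51 to 4.14). Its partner chains in type IX were nearly absent from both: Col9a2 had 15 and 6 counts and Col9a3 0 and 0. Among the other fibre-associated chains, Col12a1 was level at 17.4 and 16.8 CPM, Col14a1 had 78 and 32 counts and Col22a1 8 and 75, none past the rule.

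Both measured chains of type VIII collagen, a short-chain collagen of the vessel wall and of corneal membranes, were higher in the Venus-negative library. Col8a2 had 236 counts in the Venus-negative and 2 in the Venus-positive library (log2 ratio 6.74, interval 4.88 to 9.80). Col8a1 had 122 and 4 counts (log2 ratio 4.79, interval 3.40 to 6.69). These rest on a handful of counts in the Venus-positive library, and both levels in the Venus-negative library were modest, 22.7 and 11.7 CPM. Col26a1 was higher in the Venus-negative library at 66.0 and 24.5 CPM (log2 ratio 1.43, interval 1.21 to 1.65). The transmembrane collagen Col23a1 went the other way, with 8 counts in the Venus-negative and 306 in the Venus-positive library (0.768 and 32.4 CPM). That is 42.1-fold lower, a log2 ratio of −5.40 (interval −6.62 to −4.40). Col13a1, another transmembrane collagen, had 189 and 77 counts and was not past the rule (log2 ratio 1.16).

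**Figure D2:**
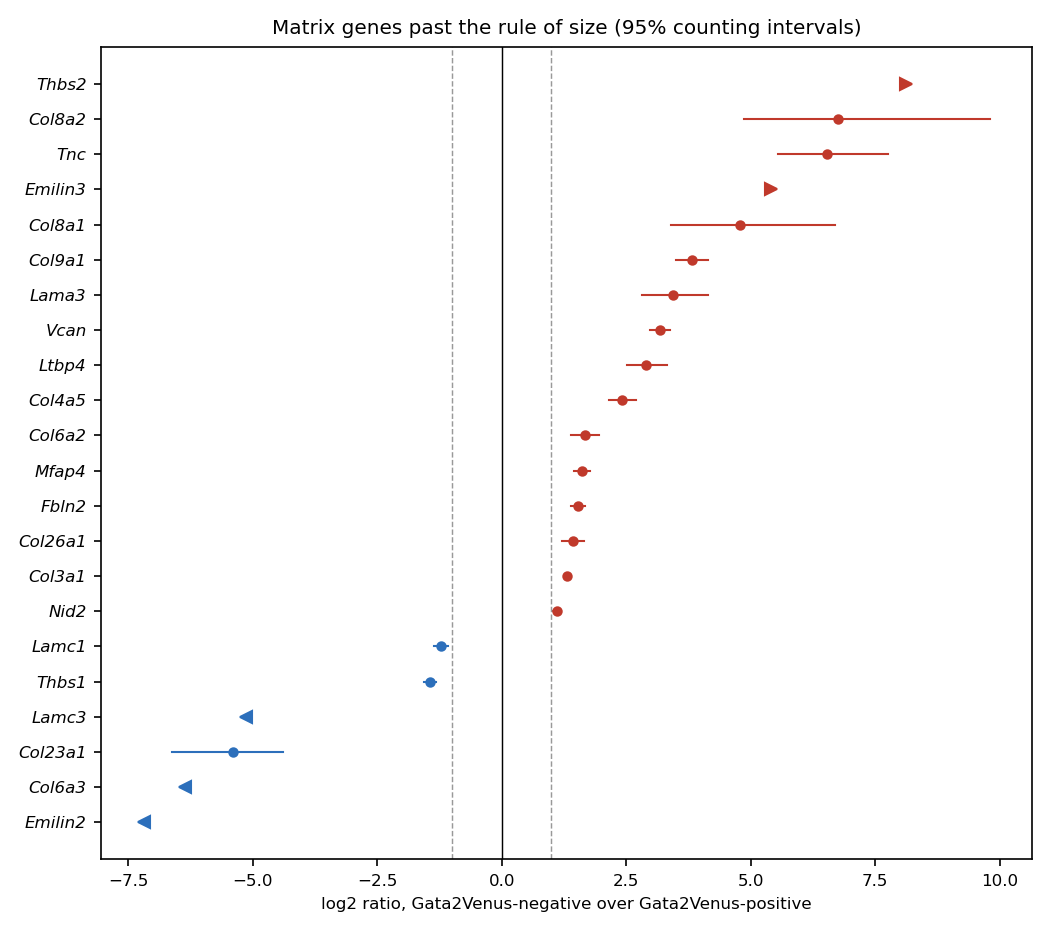
Log2 ratio of the Gata2Venus-negative over the Gata2Venus-positive library for 22 of the 23 matrix genes past the rule of size, with exact 95% counting intervals as lines. Triangles are genes with 0 counts in a library, drawn at the ratio that 3 counts give, and dashed lines mark 2-fold. The 16 genes right of the solid line were higher and the 6 left of it lower in the Venus-negative library.

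The basement membrane genes did not share a direction. Summed over the type IV collagens, types XV and XVIII, laminins, nidogens and perlecan, their level was 3303 CPM in the Venus-negative and 4122 CPM in the Venus-positive library (log2 ratio −0.32, interval −0.34 to −0.30), whereas the sum over all other classes was 12982 and 9678 CPM (log2 ratio 0.42, interval 0.41 to 0.44). Basement membrane classes made up 20.3% of matrix counts in the Venus-negative and 29.9% in the Venus-positive library. The lower sum rested on Col18a1, Col4a1 and Col4a2: without them, an alternative added after seeing the data, it was 1829 and 1558 CPM (log2 ratio 0.23, interval 0.20 to 0.26). The sum over the other classes holds Col3a1, at 3249 CPM in the Venus-negative and 1310 CPM in the Venus-positive library. It is not given without that gene. The contrast between these sums, and between their shares, thus leans on a few genes. All laminins summed to 814 and 715 CPM (log2 ratio 0.19), and the nidogens with perlecan to 881 and 753 CPM (0.23). The sums over basement membrane and other classes were formed with the values known and have no test. Single genes went both ways: of 18 measured basement membrane members 3 were higher, 3 lower and 12 not past the rule. The background was 12.6% higher and 12.3% lower of all 12544 genes.

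Col4a1 and Col4a2, whose chains form the type IV network of nearly every basement membrane, had lower values in the Venus-negative library without passing the rule. Col4a1 (chromosome 8, 11198423 to 11312826) was at 400 CPM in the Venus-negative and 816 CPM in the Venus-positive library (log2 ratio −1.03, interval −1.08 to −0.98), and Col4a2 (chromosome 8, 11312805 to 11449287) at 317 and 480 CPM (log2 ratio −0.60, interval −0.66 to −0.53). The interval of Col4a1 spans 2-fold, and it was not past the rule under any of the 4 other scalings run. The chains of the rarer type IV networks, encoded on the X chromosome, behaved differently from this pair. Col4a5 (X, 141475385 to 141689234) had 761 and 129 counts and was 5.36-fold higher in the Venus-negative library (log2 ratio 2.42, interval 2.15 to 2.70), while Col4a6 (X, 141165403 to 141474076) had 420 and 311 (log2 ratio 0.29, interval 0.08 to 0.51). Col4a3 and Col4a4 had 0 counts in both.

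The type IV genes lie in head-to-head pairs. The annotated starts of Col4a1 and Col4a2 are 21 bases apart, those of Col4a3 and Col4a4 72 bases and those of Col4a5 and Col4a6 1309 bases, and within each detected pair the intervals of the 2 log2 ratios did not overlap. The promoter windows around the start of the 4 detected genes, from RefSeq on GRCm38.p6, are shown because the genes of each pair lie head to head. The windows of Col4a5 and Col4a6 do not overlap. Capitals mark the TATA box TATAAA, the CCAAT box CCAAT, the GATA core GATAA and the GC box GGGCGG, on either strand.
Col4a1 (chr8:11312777-11313076, minus strand): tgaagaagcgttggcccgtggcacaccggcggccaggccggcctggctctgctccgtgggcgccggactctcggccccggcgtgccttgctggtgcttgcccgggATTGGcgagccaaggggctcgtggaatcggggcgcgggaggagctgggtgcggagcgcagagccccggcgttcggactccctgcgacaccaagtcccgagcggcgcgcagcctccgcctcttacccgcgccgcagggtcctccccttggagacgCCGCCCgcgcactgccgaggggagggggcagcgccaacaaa
Col4a2 (chr8:11312555-11312854, plus strand): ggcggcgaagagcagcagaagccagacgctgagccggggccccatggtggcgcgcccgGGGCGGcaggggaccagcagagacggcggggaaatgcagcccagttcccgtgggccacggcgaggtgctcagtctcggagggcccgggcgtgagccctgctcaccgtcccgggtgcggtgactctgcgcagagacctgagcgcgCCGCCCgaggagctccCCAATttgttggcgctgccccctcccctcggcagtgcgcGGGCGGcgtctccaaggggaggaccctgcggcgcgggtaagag
Col4a5 (chrX:141475169-141475468, plus strand): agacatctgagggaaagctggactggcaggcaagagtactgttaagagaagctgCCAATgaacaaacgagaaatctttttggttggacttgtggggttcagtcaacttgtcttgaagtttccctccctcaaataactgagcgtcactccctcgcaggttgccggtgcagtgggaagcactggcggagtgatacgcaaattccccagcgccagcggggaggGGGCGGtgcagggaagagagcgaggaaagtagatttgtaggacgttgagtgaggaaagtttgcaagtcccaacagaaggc
Col4a6 (chrX:141474027-141474326, minus strand): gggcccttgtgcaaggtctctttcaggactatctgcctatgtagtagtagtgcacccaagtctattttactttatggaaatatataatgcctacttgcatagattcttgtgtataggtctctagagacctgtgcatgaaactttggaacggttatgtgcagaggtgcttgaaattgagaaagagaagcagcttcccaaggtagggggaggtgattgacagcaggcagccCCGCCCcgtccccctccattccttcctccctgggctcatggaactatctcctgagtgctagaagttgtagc

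The windows of Col4a1 and Col4a2 share 78 bases. Both hold CCAAT and GGGCGG and neither holds TATAAA or GATAA. The only GGGCGG of Col4a1 lies in the shared bases and is the same site as the Col4a2 match 8 bases after its start. In Col4a2 a CCAAT begins 32 bases before the start, and in Col4a1 one on the opposite strand begins 145 bases before it. Col4a5 holds a CCAAT 196 bases and a GGGCGG 30 bases before the start, and Col4a6 holds GGGCGG alone, on the opposite strand 21 bases before it. RefSeq windows were found for 65 of the 91 members, with the first window taken where a gene has several. Of these 63.1% hold GGGCGG on either strand, 35.4% CCAAT, 12.3% GATAA and 10.8% TATAAA, against 35.9%, 37.9%, 25.8% and 14.2% of the windows of 27025 genes. GATAA was in 0 of the 11 windows of members higher and 0 of the 3 windows of members lower in the Venus-negative library. A match describes the letters only.

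Types XV and XVIII, proteoglycan-like collagens of the basement membrane zone whose ends release endostatins, had lower values in the Venus-negative library. Col18a1 (chromosome 10, 77052178 to 77166548) was at 757 CPM in the Venus-negative and 1267 CPM in the Venus-positive library (log2 ratio −0.74, interval −0.78 to −0.70), and Col15a1 at 20.7 and 44.7 CPM (log2 ratio −1.11, interval −1.35 to −0.87). Neither passed the rule. Perlecan (Hspg2), the heparan sulphate proteoglycan of basement membranes, was at 116 and 246 CPM (log2 ratio −1.09, interval −1.19 to −0.98), also just short of it.

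The nidogens, which bridge laminin and type IV collagen, were unlike each other. Nid2 (chromosome 14, 19751265 to 19811787) was higher in the Venus-negative library at 391 and 182 CPM (log2 ratio 1.11, interval 1.02 to 1.19), close to the edge of the rule. Nid1 was at 374 and 325 CPM (log2 ratio 0.20). The exons of Nid2 overlap the antisense gene Rtraf, and the use of strand in counting is not given in the sources used here.

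The laminin gamma genes Lamc1 and Lamc3 were lower in the Venus-negative library. Lamc1 (chromosome 1, 153218922 to 153332786), whose chain is part of most laminins, had 580 counts in the Venus-negative and 1221 in the Venus-positive library, 55.7 and 129 CPM (2.32-fold lower in these cells, a log2 ratio of −1.21, interval −1.36 to −1.07). Lamc3 had 0 and 95 counts (at least 34.9-fold lower). Scaling by total counts ended both calls, with an interval of −1.28 to −0.99 for Lamc1 and 9.78 CPM for Lamc3 in the Venus-positive library. The beta chain gene Lamb1 pointed the other way at 504 and 314 CPM (log2 ratio 0.68, interval 0.62 to 0.75) and Lamb2 was at 42.3 and 48.2 CPM, neither past the rule. Per length, Lamb1 over Lamc1 was 7.55 in the Venus-negative and 2.03 in the Venus-positive library, or 11.9 and 3.21 with the longest coding transcript.

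Of the laminin alpha genes, Lama3, the epithelial alpha chain, had 263 counts in the Venus-negative and 22 in the Venus-positive library, 10.9-fold higher in the Venus-negative library (log2 ratio 3.44, interval 2.81 to 4.14). Lama4, the alpha chain typical of vessels, was level at 113 and 128 CPM (log2 ratio −0.19), as were Lama1 at 63.9 and 53.3 CPM (0.26) and Lama5 at 8.45 and 7.51 CPM (0.17). Lama2, known from muscle, had 17 and 0 counts and was not measured. Lamb3, the beta chain of an epithelial laminin, had 0 counts in both.

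**Figure D3:**
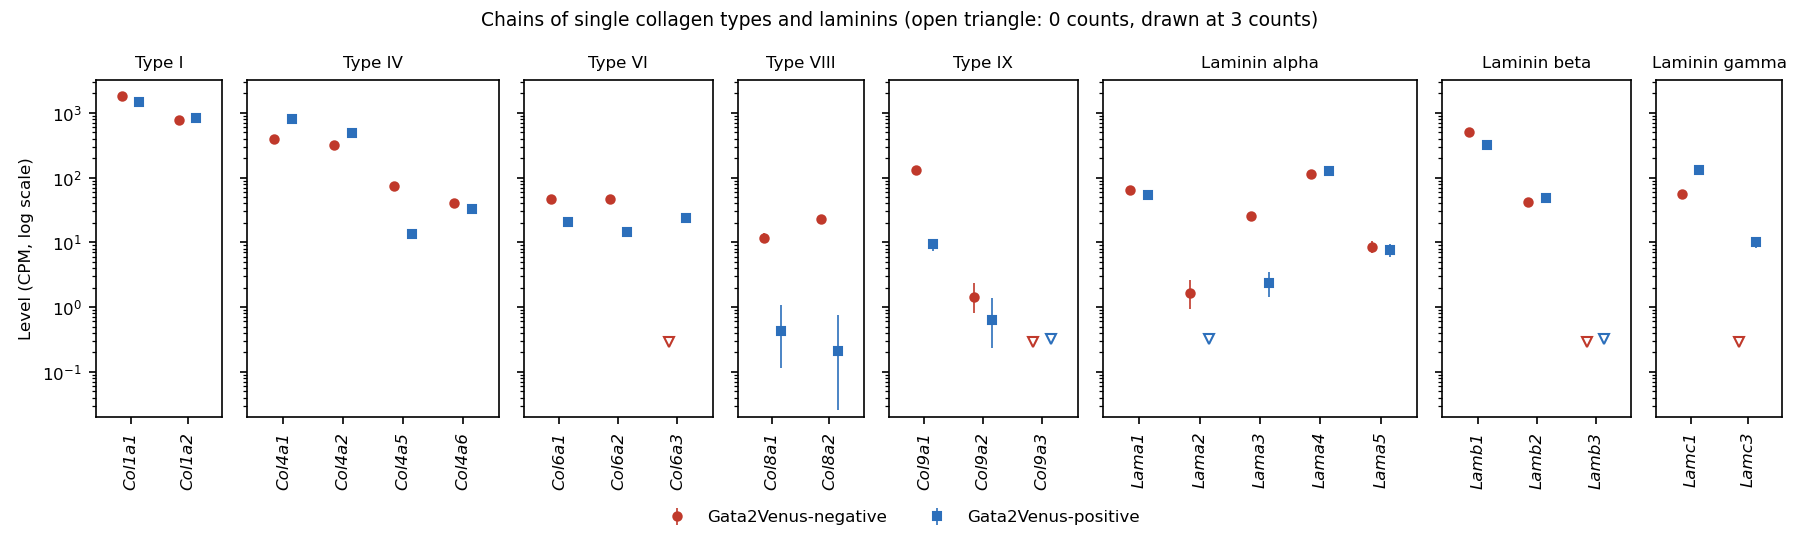
Levels in CPM (log scale) of the chains of collagen types I, IV, VI, VIII and IX and of the laminins, in the Gata2Venus-negative library (circles) and the Gata2Venus-positive library (squares), with exact 95% counting intervals. Open triangles mark 0 counts. The type I chains lie close together, while Col6a3 at 0 and 225 counts departs from Col6a1 and Col6a2, and Lamc1 and Lamc3 lie lower in the Venus-negative library.

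Type VI collagen forms beaded filaments from the products of Col6a1, Col6a2 and Col6a3, and here the chains disagreed. Col6a1 (chromosome 10, 76708792 to 76726168) had 486 counts in the Venus-negative and 196 in the Venus-positive library (log2 ratio 1.17, interval 0.93 to 1.42), past the rule of size when scaled by total counts but not as given, and Col6a2, its neighbour 85161 bases away, had 489 and 139 (3.20-fold higher, log2 ratio 1.68, interval 1.40 to 1.96). Col6a3 (chromosome 1, 90765923 to 90843971) had 0 and 225 counts, at least 82.6-fold lower in the Venus-negative library. Thus the Venus-negative library held more counts of 2 chains and none of the third. Col6a4, Col6a5 and Col6a6, neighbours on chromosome 9, had 0 counts in both. The 3 promoter windows are shown for comparison, with capitals as above.
Col6a1 (chr10:76725995-76726294, minus strand): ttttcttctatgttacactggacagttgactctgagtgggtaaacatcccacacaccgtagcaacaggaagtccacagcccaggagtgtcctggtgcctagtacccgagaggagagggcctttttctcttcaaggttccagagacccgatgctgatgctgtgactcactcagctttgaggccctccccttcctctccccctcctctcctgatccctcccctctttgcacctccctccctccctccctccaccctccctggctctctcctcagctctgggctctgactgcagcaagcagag
Col6a2 (chr10:76623355-76623654, minus strand): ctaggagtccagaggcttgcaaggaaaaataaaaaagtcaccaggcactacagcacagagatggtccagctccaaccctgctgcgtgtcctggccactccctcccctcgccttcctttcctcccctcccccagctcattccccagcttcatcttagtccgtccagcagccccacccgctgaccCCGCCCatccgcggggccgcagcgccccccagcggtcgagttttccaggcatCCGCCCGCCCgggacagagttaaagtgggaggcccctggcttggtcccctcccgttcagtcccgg
Col6a3 (chr1:90843922-90844221, minus strand): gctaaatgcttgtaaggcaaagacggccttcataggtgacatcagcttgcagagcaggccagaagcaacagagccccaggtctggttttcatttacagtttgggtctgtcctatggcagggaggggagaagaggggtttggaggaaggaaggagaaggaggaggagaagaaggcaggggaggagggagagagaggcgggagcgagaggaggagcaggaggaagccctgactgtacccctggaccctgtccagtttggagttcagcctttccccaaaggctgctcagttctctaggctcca

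Col6a2 holds 3 matches of GGGCGG on the opposite strand, 67, 15 and 11 bases before the start, and the last 2 overlap. The windows of Col6a1 and Col6a3 hold none of the 4 motifs.

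Elastic fibres are elastin cores sheathed in fibrillin microfibrils, to which fibulins, emilins and microfibril-associated proteins bind. All 16 members of this class were measured, with 3 higher and 1 lower in the Venus-negative library and 12 not past the rule. The background was 12.6% higher and 12.3% lower of all 12544 genes. The core genes did not differ by much. Fbn1 was at 60.7 and 69.3 CPM (log2 ratio −0.19, interval −0.35 to −0.03), and Fbn2, the fibrillin most used in embryos, at 186 and 137 CPM (log2 ratio 0.44, interval 0.34 to 0.55). Elastin (Eln) itself was low, with 83 and 86 counts, 7.97 CPM in the Venus-negative and 9.09 CPM in the Venus-positive library.

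The binding proteins of the fibre differed more. Fbln2 (chromosome 6, 91212455 to 91272540), a fibulin of developing vessels and heart valves, was at 179 CPM in the Venus-negative and 62.0 CPM in the Venus-positive library (2.89-fold higher, log2 ratio 1.53, interval 1.40 to 1.67). Mfap4 (chromosome 11, 61485431 to 61488900), which binds elastic fibres, had 1435 and 426 counts (log2 ratio 1.61, interval 1.46 to 1.77), and its exons overlap the antisense gene Mapk7. Fbln1 was at 281 and 139 CPM (log2 ratio 1.01, interval 0.92 to 1.11) and Mfap2 at 201 and 113 CPM (log2 ratio 0.83), neither past the rule. Efemp2, Mfap3 and Mfap5 had log2 ratios of 0.38, 0.30 and 0.35.

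The emilins, which bind elastin and microfibrils, did not share a direction. Emilin1 was present in both at 298 and 452 CPM (log2 ratio −0.60, interval −0.67 to −0.53). Emilin2 had 0 counts in the Venus-negative and 398 in the Venus-positive library (at least 146-fold lower), and Emilin3 had 140 and 0 (at least 42.4-fold higher). Below the level the rule asks for, Fbln5 had 0 and 65 counts, Fbln7 0 and 81, and Efemp1 56 and 0. Of the latent TGF-beta binding proteins, which tie the growth factor to microfibrils, Ltbp4 (chromosome 7, 27305136 to 27337692) was 7.48-fold higher in the Venus-negative library, with 502 and 61 counts (log2 ratio 2.90, interval 2.52 to 3.31). Ltbp1 had 292 and 535 counts (log2 ratio −1.01, interval −1.22 to −0.80) and was not past the rule.

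Fibronectin (Fn1), the adhesive glycoprotein on which many fibres assemble, was at 904 CPM in the Venus-negative and 551 CPM in the Venus-positive library (log2 ratio 0.71, interval 0.67 to 0.76), not past the rule. The thrombospondins, trimeric or pentameric proteins that modulate adhesion and angiogenesis, were opposed. Thbs1 (chromosome 2, 118111876 to 118127133), also stored in platelets, had 775 and 1917 counts, 74.4 and 203 CPM (in the Venus-negative library 2.72-fold lower, with a log2 ratio of −1.45, interval −1.57 to −1.32). Thbs2 (chromosome 17, 14665500 to 14694235), its close relative of connective tissue cells, had 915 counts in the Venus-negative and 0 in the Venus-positive library, at least 277-fold higher. Thbs3 had 6 and 0 counts, and Thbs4 0 and 0.

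Tenascin C and versican, large proteins of remodelling embryonic matrix, were both higher in the Venus-negative library. Tnc (chromosome 4, 63959785 to 64047015) had 814 and 8 counts, 78.2 and 0.846 CPM (92.4-fold higher, log2 ratio 6.53, interval 5.54 to 7.75). Vcan (chromosome 13, 89655312 to 89742509), a hyaluronan-binding proteoglycan, had 2081 and 209 counts, 200 and 22.1 CPM (9.05-fold higher, log2 ratio 3.18, interval 2.97 to 3.39). The other abundant matricellular genes were nearly level. Sparc was at 1133 CPM in the Venus-negative and 1431 CPM in the Venus-positive library (log2 ratio −0.34), Postn, known from developing valves and periosteum, at 1127 and 890 CPM (0.34), and Sparcl1 at 115 and 119 CPM (−0.04, or 0.04 when scaled by total counts).

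The small leucine-rich proteoglycans, which bind collagen fibres and limit their width, were not past the rule in either direction. Lum was at 462 CPM in the Venus-negative and 500 CPM in the Venus-positive library (log2 ratio −0.11), Bgn at 152 and 148 CPM (0.04) and Dcn at 187 and 313 CPM (−0.74, interval −0.83 to −0.66). Lum and Dcn lie 46984 bases apart on chromosome 10. Lum, Bgn and the type I collagen chains thus had ratios closer to 1 than Dcn.

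**Figure D4:**
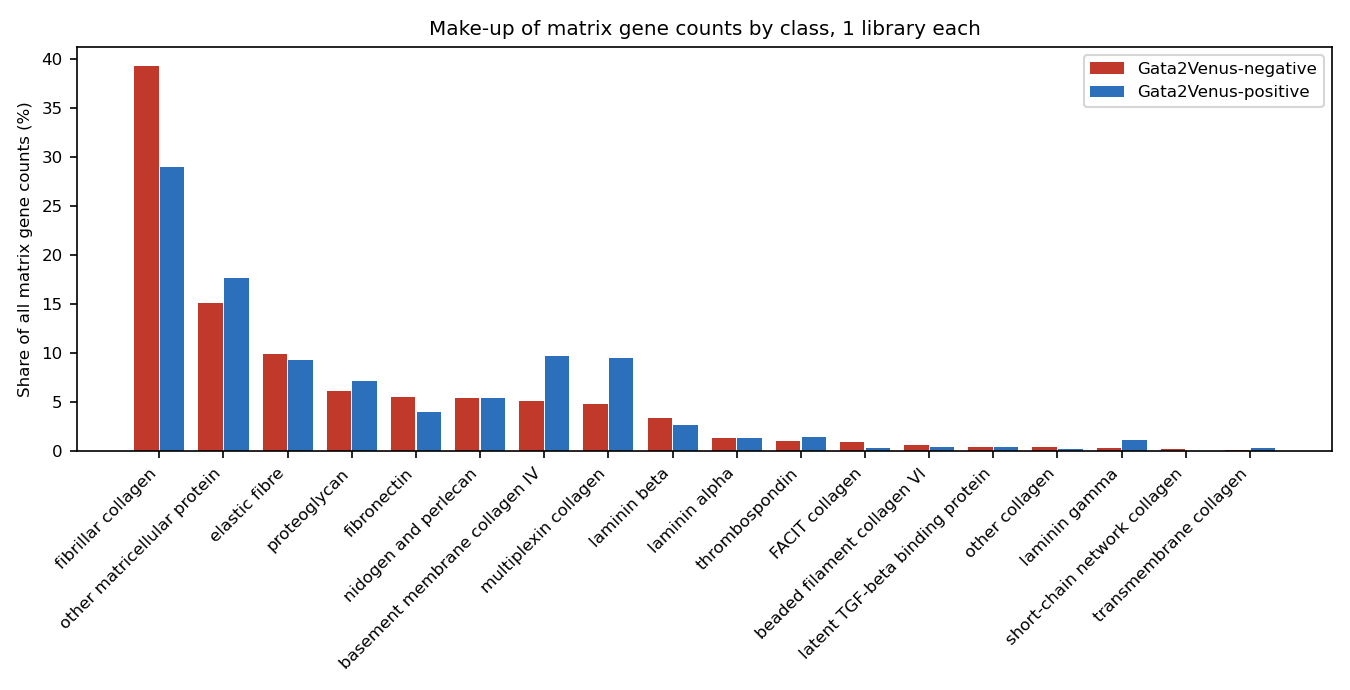
Share of all matrix gene counts (%) taken by each class of matrix genes in the Gata2Venus-negative library (left bars) and the Gata2Venus-positive library (right bars), 1 library each. Fibrillar collagens held 39.3% and 29.0%, type IV collagens 5.10% and 9.73%, and types XV and XVIII together 4.78% and 9.51%.

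Some members were counted in a single library. At least 50 counts in a library with at most 3 in the other were found for 10 of the 70 measured members (14.3%), against 10.9% of all 12544 genes, a share near the background. Thbs2, Col8a2, Emilin3 and Efemp1 had at least 50 counts in the Venus-negative library alone, 4 members against 5.21% of all genes. For 6 members this held in the Venus-positive library, among them Emilin2, Col6a3, Lamc3, Fbln7 and Fbln5, against 5.7%. Among the 34 members averaging 50 CPM or more, 0 behaved in this way. Of the 16 and 7 members past the rule, 13 and 3 had more than 3 counts in both libraries. Whether loss of low-abundance transcripts in amplification has a part in this was not tested.

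**Figure D5:**
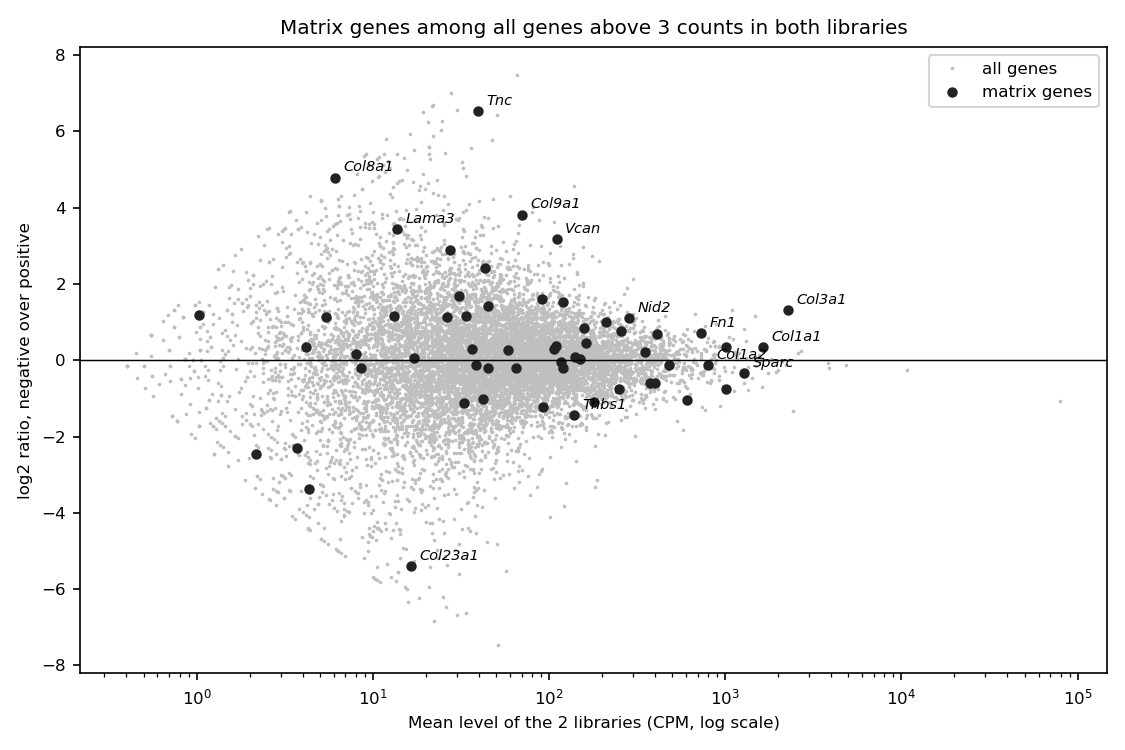
Log2 ratio of the Gata2Venus-negative over the Gata2Venus-positive library against the mean level in CPM (log scale) for all 10644 genes above 3 counts in both libraries (grey), with the 59 matrix genes among them in black. Ratios spread widely at low levels, and Col3a1 (1.31) lies above the other highly expressed matrix genes Col1a1 (0.34), Postn (0.34), Sparc (−0.34) and Col18a1 (−0.74).

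The enzymes that fold, modify and cross-link collagen did not share a direction. Of 35 genes in the list 32 were measured, with 5 higher and 7 lower in the Venus-negative library and 20 not past the rule, a median log2 ratio of 0.04. The background for this list and for the receptors below was 12.6% higher and 12.3% lower of all 12544 genes. Their summed level was 5815 CPM in the Venus-negative and 5861 CPM in the Venus-positive library. P4ha3, a prolyl 4-hydroxylase subunit, had 389 and 12 counts (29.4-fold higher), and the procollagen protease gene Adamts14 had 203 and 23 (8.02-fold higher). Its relative Adamts3 had 0 and 106 counts (at least 38.9-fold lower), and Leprel2, a prolyl 3-hydroxylase, 0 and 108 (at least 39.6-fold lower). Serpinh1, the collagen chaperone, named after its values were seen, was level at 1524 and 1431 CPM. Of 27 matrix receptor genes 23 were measured, with 4 higher, 4 lower and 15 not past the rule, and a median of 0.16. Cd36, a thrombospondin receptor, had 1 and 180 counts (log2 ratio −7.63), Gpr56, whose product binds type III collagen, 232 and 1253 (−2.57), the integrin gene Itga8 381 and 72 (2.27) and Ddr2, a receptor for fibrillar collagen, 480 and 115 (1.92).

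Marker lists of other cell types differed between the libraries in both directions, and some did not differ by the rule. By the same rule 12.6% of all 12544 genes were higher and 12.3% lower. The sort gene Gata2 had 141 counts in the Venus-negative and 664 in the Venus-positive library (log2 ratio −2.37), Kit was at 199 and 60.7 CPM, and Pecam1, which encodes CD31, at 537 and 489 CPM. Of 8 mesenchyme markers 6 were higher in the Venus-negative library and 0 lower, with a summed level of 608 and 130 CPM, and Twist1 was at 0 in the Venus-positive library. Of 7 smooth muscle and pericyte markers 6 were measured and 4 were higher, with 924 and 309 CPM in all and Myh11 at 0 in the Venus-positive library. Of 8 endothelial markers 4 were lower and 0 higher, at 2390 and 4307 CPM, with none at 0 in either library. Of 8 haematopoietic markers 7 were measured and 4 were lower, at 551 and 1047 CPM, and Gfi1, Gfi1b and Myb were at 0 in the Venus-negative library and Gfi1 in the Venus-positive library. Runx1, which starts the blood programme, had 21 and 303 counts, and the mesenchymal receptor gene Pdgfra 2862 and 333. The pericyte gene Rgs5 had 489 and 2 counts and the endothelial gene Emcn 2639 and 8447.

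The remaining marker lists were smaller. Macrophage markers were lower in 6 of 8 genes, at 213 CPM in the Venus-negative and 930 CPM in the Venus-positive library, with none at 0. Megakaryocyte markers were lower in 4 of 5, at 65.7 and 319 CPM, with Gp5 at 0 in the Venus-negative library. Itgb3 is in this list and in that of the receptors. Mesothelial and urogenital markers had 1 of 6 higher, at 406 and 322 CPM, with Msln at 0 in the Venus-negative library. Both epithelial markers were higher, at 78.8 and 22.0 CPM, as were all 4 germ cell markers, at 215 and 6.45 CPM, with Dazl at 0 in the Venus-positive library. Of the chondrogenic markers Sox9 was higher at 29.1 and 11.4 CPM, and Acan, Matn1 and Matn4 were at 0 in both libraries. Of 4 neural crest and neuron markers 2 were measured, with 0 past the rule, at 14.1 and 1.27 CPM in all. Sox10 and Tubb3 were at 0 in both libraries. The part of these cell types in the matrix values was not tested, and in bulk RNA fewer cells of a type and less RNA per cell cannot be told apart.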

How the data were processed

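RNA of 2 libraries was extracted with Ambion's mirVana kit and amplified by SMARTER, per the labels' protocols. TopHat, Cufflinks and HTSeq with build mm10 are named per the submitters' processing notes. Their versions, the annotation and the strand setting were not given in the sources used here. The authors deposited raw whole-number counts, 1 table per library, with gene symbols as names. Rows that name no gene were left out: 45.5% of table counts in the Venus-negative and 48.2% in the Venus-positive library were alignments that are not unique, 5.93% and 7.996% were in no feature, and 0.474% and 0.412% were ambiguous.

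Counts were scaled by TMM factors (1.03 and 0.974; edgeR 4.0.16, R 4.3.3) on gene totals of 10135400 and 9715131. Ratio intervals are Clopper-Pearson, levels have exact Poisson intervals (scipy 1.17.1). Coordinates and exon lengths come from GENCODE vM21 of mm10, matched by symbol (22708 genes), and promoters from RefSeq on GRCm38.p6. The exons of 18 measured members overlap another gene. Among those past the rule are Col3a1, with a gene on the same strand, and Tnc, Lama3, Lamc3, Thbs1, Nid2 and Mfap4, each with an antisense gene. Members described as units, all members past the rule and the 12 highest per length were given values by rule, with up to 4 genes per list. The rule of size and its intervals were tested on simulated counts that held counting error alone. Those counts had no spread between libraries, so they cannot show how the rule performs where there is such spread. Results of 1 member and 1 marker gene are not reported here, though both remain in counts, sums and medians. Members, lists and rules were chosen with earlier results of these data known. Alternatives were other scalings (including DESeq2 1.42.0 size factors), filters, fold sizes, an assumed spread between libraries and added counts.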

Additional observations from a re-analysis of the deposited data

How the results depend on the processing

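The 16 members higher and 7 lower in the Venus-negative library were recounted under each alternative. The 4 other scalings gave 15 to 17 higher and 5 to 9 lower. Scaling by total counts ended the calls of Lamc1 and Lamc3 and added Col6a1. Scaling without the 100 most abundant genes left Col3a1 out and added Col22a1 and Fbln7. That setting also lowered the totals behind CPM, so levels rose against the fixed filter of 10 CPM. In the Venus-positive library Col22a1 went from 7.93 to 10.1 CPM and Fbln7 from 8.56 to 10.9 CPM. The median log2 ratio shifted by 2.8e-05, so these changes came from the filter and the exclusion rather than from the ratios. Total counts as the scale shifted the median over all genes by 0.077 (log2). A filter of 1 CPM and 10 counts gave 18 higher and 12 lower, as did no filter on level. A filter of 50 CPM gave 10 and 2, an interval beyond 4-fold 10 and 5, and a 2-fold ratio without the interval 20 and 11. Assuming a spread between libraries (coefficient of variation) of 0.4 left 9 higher (Col8a1, Col8a2, Col9a1, Emilin3, Lama3, Ltbp4, Thbs2, Tnc and Vcan) and 5 lower (among them Col23a1, Col6a3, Emilin2 and Lamc3), so Col3a1, Nid2, Lamc1 and Thbs1 were among those not past the rule there. Over all genes, the same assumed spread left 659 higher and 691 lower. Dropping members with at most 3 counts in a library, added after seeing the data, gave 13 and 3. The other recounts are not set against all genes here. The median log2 ratio of measured members was between 0.23 and 0.36 under its 9 alternatives.

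For the 61 measured members with counts in both libraries, the log2 ratio stayed within its counting interval in 231 recalculations under the other scalings. It left the interval in 13, all under scaling by total counts, and the uncalled Sparcl1 alone changed sign. Low counts limit Col8a1, Col8a2, Tnc and Col23a1, which had at most 8 counts in a library. No paired analysis was possible because each group has 1 library.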
